A study of Mus musculus with 2 samples.

Results

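The circadian clock genes described here are 10 of the 32285 genes counted in kidney nuclei of mice: Arntl, Npas2, Clock, Cry1, Per1, Per2, Nr1d1, Nr1d2, Dbp and Nfil3. They were taken by symbol, as a set that holds the core of the clock and its nearest outputs. The set was picked because Arntl and Npas2 were lower in distal tubule nuclei after nephrectomy. Their summed counts in those nuclei chose the set, so they are given as a description. The tissue was frozen kidney from male T1+/+ mice that were 11 weeks old at surgery, whose nuclei were isolated and sequenced one by one (10x Genomics Chromium). In the nephrectomy group, a 5/6 nephrectomy left a remnant: the right kidney was taken out, and 1 week later the poles of the left kidney were tied off. In the sham group both flanks were opened and closed again around an intact kidney. Kidneys were collected 4 weeks after surgery, and each group is 1 library, so no difference between the groups has a replicate check. Neither the number of mice behind a library nor the time of day at collection is stated. Clock transcripts cycle over the day, so a difference in clock phase at collection and a difference in daily mean level cannot be told apart here.

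The mammalian clock is a feedback loop of transcription. BMAL1, the product of Arntl, pairs with CLOCK or with its close relative NPAS2 and binds E-box sequences to switch on the Per and Cry genes, whose products then repress the pair. The same activators drive Nr1d1 and Nr1d2, which encode the REV-ERB nuclear receptors. These repress Arntl, Npas2, Clock and Nfil3 through response elements that they share with the activating ROR receptors. Dbp is an activating output of the loop and NFIL3 opposes it at D-box sequences. In the kidney, clock genes cycle in tubule cells, and sodium, water and potassium handling in the distal nephron follow a daily rhythm.

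Promoters of the 6 members whose values differed most between the libraries in distal convoluted or proximal tubule nuclei are printed here to show which of these elements lie near their starts. Each is 300 bases long, 250 before and 50 after a RefSeq transcript start on GRCm38.p6, read 5′ to 3′ along the gene strand. Capitals mark matches, on either strand, to an E-box (CACGTG) or to the nuclear receptor half-site shared by REV-ERB and ROR elements (AGGTCA, or TGACCT on the other strand). The Arntl window is chr7:113207261-113207560 on the plus strand, the Npas2 window chr1:39194022-39194321 on the plus strand, and the Nfil3 window chr13:52980990-52981289 on the minus strand. The Nr1d2 window is chr14:18239057-18239356 on the minus strand, the Cry1 window chr10:85185005-85185304 on the minus strand, and the Per1 window chr11:69098699-69098998 on the plus strand.
Arntl: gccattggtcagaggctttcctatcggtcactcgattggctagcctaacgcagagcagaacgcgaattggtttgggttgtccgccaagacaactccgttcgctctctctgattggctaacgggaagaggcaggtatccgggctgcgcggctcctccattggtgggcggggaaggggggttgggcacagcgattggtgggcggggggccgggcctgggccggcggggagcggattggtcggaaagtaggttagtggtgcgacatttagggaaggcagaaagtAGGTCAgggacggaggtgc
Npas2: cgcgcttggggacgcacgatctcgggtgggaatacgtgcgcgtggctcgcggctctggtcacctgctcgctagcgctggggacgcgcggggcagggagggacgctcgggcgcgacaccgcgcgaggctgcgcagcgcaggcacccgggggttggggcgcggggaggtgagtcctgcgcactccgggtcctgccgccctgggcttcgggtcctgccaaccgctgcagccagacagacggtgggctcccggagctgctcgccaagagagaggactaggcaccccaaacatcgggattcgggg
Nfil3: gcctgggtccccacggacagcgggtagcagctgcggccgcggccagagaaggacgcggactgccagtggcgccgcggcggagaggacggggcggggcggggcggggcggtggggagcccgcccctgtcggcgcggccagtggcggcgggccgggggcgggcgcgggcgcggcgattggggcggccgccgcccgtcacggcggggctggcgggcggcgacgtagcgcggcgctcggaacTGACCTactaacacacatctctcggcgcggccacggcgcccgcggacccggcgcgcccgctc
Nr1d2: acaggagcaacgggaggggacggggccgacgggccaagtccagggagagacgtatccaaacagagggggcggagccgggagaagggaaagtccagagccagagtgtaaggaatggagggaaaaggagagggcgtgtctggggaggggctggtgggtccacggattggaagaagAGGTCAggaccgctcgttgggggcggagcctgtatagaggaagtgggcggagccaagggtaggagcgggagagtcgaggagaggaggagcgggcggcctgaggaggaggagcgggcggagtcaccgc
Cry1: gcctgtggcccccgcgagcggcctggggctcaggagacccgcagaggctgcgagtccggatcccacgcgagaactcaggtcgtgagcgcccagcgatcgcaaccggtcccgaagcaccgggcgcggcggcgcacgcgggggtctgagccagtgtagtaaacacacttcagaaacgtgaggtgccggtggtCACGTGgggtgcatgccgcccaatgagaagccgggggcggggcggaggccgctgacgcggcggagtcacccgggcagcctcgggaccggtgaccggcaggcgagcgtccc
Per1: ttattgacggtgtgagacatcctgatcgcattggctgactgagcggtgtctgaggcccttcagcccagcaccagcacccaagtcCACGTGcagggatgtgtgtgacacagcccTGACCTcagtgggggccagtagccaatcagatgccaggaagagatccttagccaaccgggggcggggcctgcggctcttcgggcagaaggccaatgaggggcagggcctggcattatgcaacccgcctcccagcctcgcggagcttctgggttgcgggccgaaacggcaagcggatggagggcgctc

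The half-site in the Arntl window begins at base 32 after the start, and that of Nr1d2 lies 77 bases before its start. Nfil3 has one 12 bases upstream, read on the opposite strand. Cry1 has an E-box 60 bases upstream, and Per1 an E-box 166 bases and a half-site 137 bases upstream. The Npas2 window holds neither. Arntl and Per1 each have a second start in the table, whose windows, not printed, hold no match. Over the 9 members with a promoter in the table (13 promoters), 2 members had an E-box and 5 a half-site. No promoter of a member had a D-box (TTATGTAA or TTACGTAA). Among all 32851 promoters of the same length, 7.15% held the E-box letters, 16.3% the half-site and 1.06% the D-box. The member counts are per gene over all its starts and these shares are per promoter, so the 2 are not directly comparable. A match describes the sequence and does not show binding, and a window without a match says nothing about elements elsewhere.

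The nephrectomy library held 28284727 unique molecular identifiers (UMIs, counts of captured RNA molecules) over 3299 barcodes, with a median of 6844 per barcode, against 21365116 UMIs, 3084 barcodes and a median of 5140 in the sham library. After filters, 3029 nephrectomy and 2821 sham nuclei formed 20 clusters. Of these, 16 were grouped into 10 classes by marker genes, and each class name below means nuclei like that type. The classes that matter most here are distal convoluted tubule (205 nephrectomy and 137 sham nuclei), connecting tubule (141 and 100) and proximal tubule (1251 and 1018). The defining transporter gene of distal convoluted tubule nuclei, Slc12a3, stood at 11810 UMIs per 1000000 of the class (CPM) in the nephrectomy library and 11964 CPM in the sham library, a ratio of 0.987. Their other markers were not all as even: Trpm6 had a ratio of 0.939, Cnnm2 0.686 and Pvalb, a marker of the early part of the segment, 0.422. Among the markers of connecting tubule nuclei, Slc8a1 was highest, at 65172 CPM in nephrectomy and 52571 CPM in sham, a ratio of 1.24. It was also high in distal convoluted tubule nuclei, at 36928 and 34773 CPM, so it does not mark 1 class alone. The other connecting tubule markers went both ways in connecting tubule nuclei. Trpv5 had a ratio of 1.39, S100g 0.814, Calb1 0.809 and Klk1 0.570. Proximal tubule markers, summed over 12 genes, came to 675 CPM (nephrectomy) and 541 CPM (sham) in distal convoluted tubule nuclei and to 840 and 1437 CPM in connecting tubule nuclei, with all 12 detected in each. All ratios are nephrectomy CPM over sham CPM, and all intervals are exact 95% intervals for counting error only. A gene was counted as higher or lower where its ratio was at least 1.5-fold either way and the class held 20 or more of its UMIs, both libraries together. As an alternative, 20% of the UMIs of each class were taken off as free RNA with the profile of all nuclei of the same library. With this, Arntl had ratios of 0.229 in distal convoluted tubule and 0.333 in connecting tubule nuclei, Npas2 of 0.101 and 0.0977, and Nr1d2 of 4.95 and 2.70. Outside these classes, Arntl in proximal tubule went from 0.941 to 1.10 and Npas2 in thick ascending limb from 1.07 to 2.14.

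In distal convoluted tubule nuclei Arntl, Npas2 and Nfil3 were low and the REV-ERB gene Nr1d2 was high in the nephrectomy library. Of the 10 members, Nr1d2 was at least 1.5-fold higher, and Arntl, Npas2 and Nfil3 were at least 1.5-fold lower. Over all 10224 genes measured in that class, 9.83% were higher and 12.9% were lower. Connecting tubule nuclei gave enough UMIs for 8 members. Arntl and Npas2 were lower there, and Per1, Nr1d1, Nr1d2 and Dbp were higher, against 16.2% lower and 11.5% higher over 9026 genes. The counts in these 2 classes include the contrast that chose the set, so nothing is read from them. In proximal tubule nuclei all 10 members were measured. Cry1 and Per1 were higher and Nr1d1 and Nfil3 lower there, beside 11.1% of 14529 genes in each direction.

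**Figure D1:**
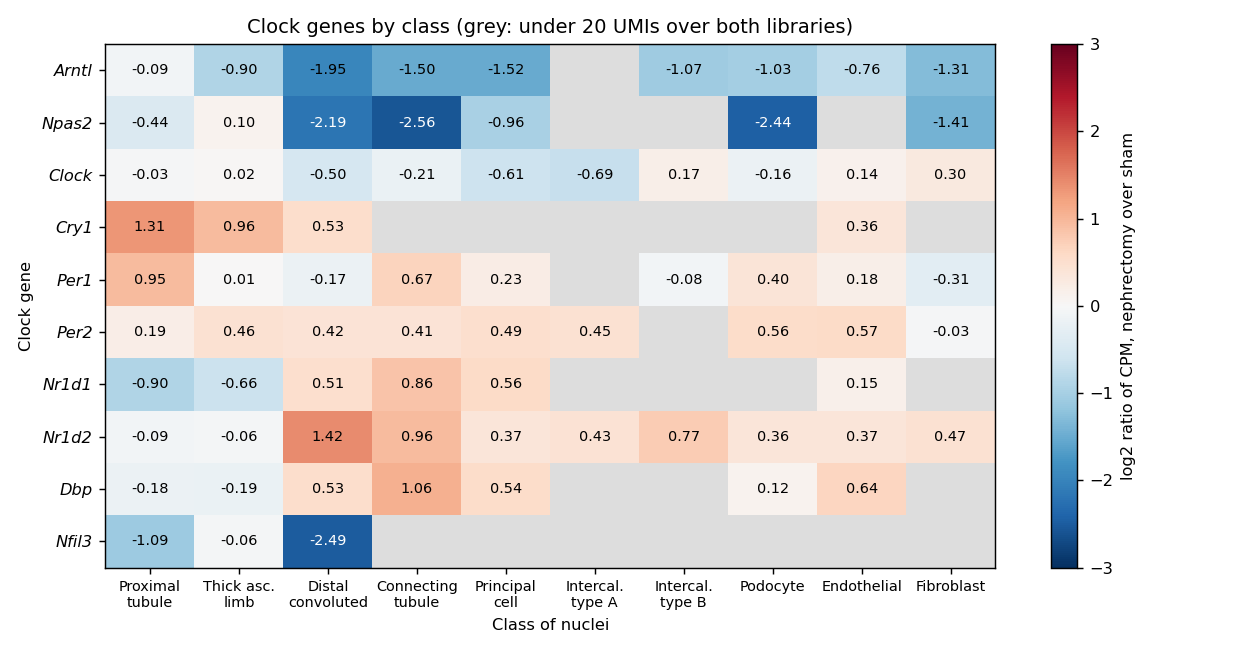
Log2 ratio of CPM, nephrectomy over sham, for each clock gene (rows) in each class of nuclei (columns), with the value printed in each cell and grey where the gene had under 20 UMIs over both libraries. Arntl is negative in all 9 classes measured, while Nr1d2 reaches 1.42 in distal convoluted tubule nuclei and lies at -0.09 in proximal tubule nuclei.

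Arntl (ENSMUSG00000055116, chr7:113207465-113314126, plus strand), which encodes the obligate partner of the activator pair, had 61 UMIs in the nephrectomy and 126 UMIs in the sham distal convoluted tubule nuclei. The level was 28.8 CPM (22.0 to 37.0) in nephrectomy and 111 CPM (92.6 to 132) in sham nuclei, and the ratio 0.259 (0.187 to 0.354). The nephrectomy level was close to the 26.7 CPM that Arntl had over all nuclei of that library. Connecting tubule nuclei had 62 Arntl UMIs in the nephrectomy and 96 in the sham library, or 48.4 and 137 CPM, a ratio of 0.352 (0.252 to 0.490). In proximal tubule nuclei the levels lay within counting error of each other, at 24.8 CPM in nephrectomy (333 UMIs) and 26.4 CPM in sham nuclei (284 UMIs), a ratio of 0.941 (0.801 to 1.11).

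Fewer distal nuclei carried an Arntl UMI in the nephrectomy library although it was sequenced more deeply. The share was 17.6% of 205 nephrectomy and 44.5% of 137 sham distal convoluted tubule nuclei, at median depths of 9724 and 7841 UMIs. In connecting tubule nuclei it was 17.7% in nephrectomy and 45.0% in sham, at medians of 9054 and 6308.5 UMIs. Thick ascending limb nuclei, a class with a low Arntl level, had shares of 7.65% in nephrectomy and 10.8% in sham at medians of 6938 and 5717.5 UMIs. After each nucleus was thinned to 1000 UMIs, the distal convoluted tubule share was 3.41% in nephrectomy (7 of 205 nuclei, 1.38% to 6.91%). In sham it was 8.03% (11 of 137, 4.08% to 13.9%), and these intervals overlapped. Thinned to 4000 UMIs, which kept 196 nephrectomy and 126 sham distal convoluted tubule nuclei, the class held 28 Arntl UMIs in nephrectomy and 59 in sham. The UMIs were spread over many nuclei: of the nephrectomy nuclei 22 had 1 UMI, 7 had 2 and 7 had 3 or more, and of the sham nuclei 30, 18 and 13 did. The highest single nucleus held 4 UMIs in nephrectomy and 8 in sham. The variance over nuclei was 2.02 times the mean in nephrectomy and 2.43 times in sham, so nuclei varied more than the counting intervals allow for.

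Across classes, Arntl had a ratio under 1 in all 9 classes with at least 20 UMIs and was at least 1.5-fold lower in 8 of them. Over all genes measured in a class, the share that was lower was 16.1% in principal cells, 16.4% in fibroblasts, 15.0% in type B intercalated cells, 13.5% in podocytes, 12.2% in thick ascending limb and 11.5% in endothelial nuclei. The ratio was 0.348 in principal cells (14 nephrectomy and 26 sham UMIs), 0.403 in fibroblasts (23 and 42), 0.477 in type B intercalated cells (20 and 17) and 0.491 in podocytes (17 and 15). It was 0.536 in thick ascending limb (39 and 60) and 0.592 in endothelial nuclei (47 and 62). In podocytes the interval included 1 (0.231 to 1.06), and so did that of proximal tubule nuclei. Type A intercalated cells had 2 nephrectomy and 14 sham UMIs, below the minimum. In the nephrectomy library the order of Arntl levels was fibroblast (59.5 CPM), endothelial (49.8), connecting tubule (48.4), type B intercalated (32.2), distal convoluted tubule (28.8), podocyte (28.1), proximal tubule (24.8), principal (20.9), thick ascending limb (13.5) and type A intercalated cells (5.72), and the intervals of all neighbours in that order overlapped. In the sham library fibroblasts (148 CPM), connecting tubule (137) and distal convoluted tubule (111) led, and proximal tubule (26.4) and thick ascending limb (25.2) came last. There, neighbours overlapped at every step but that between podocytes (57.2 CPM) and proximal tubule.

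**Figure D2:**
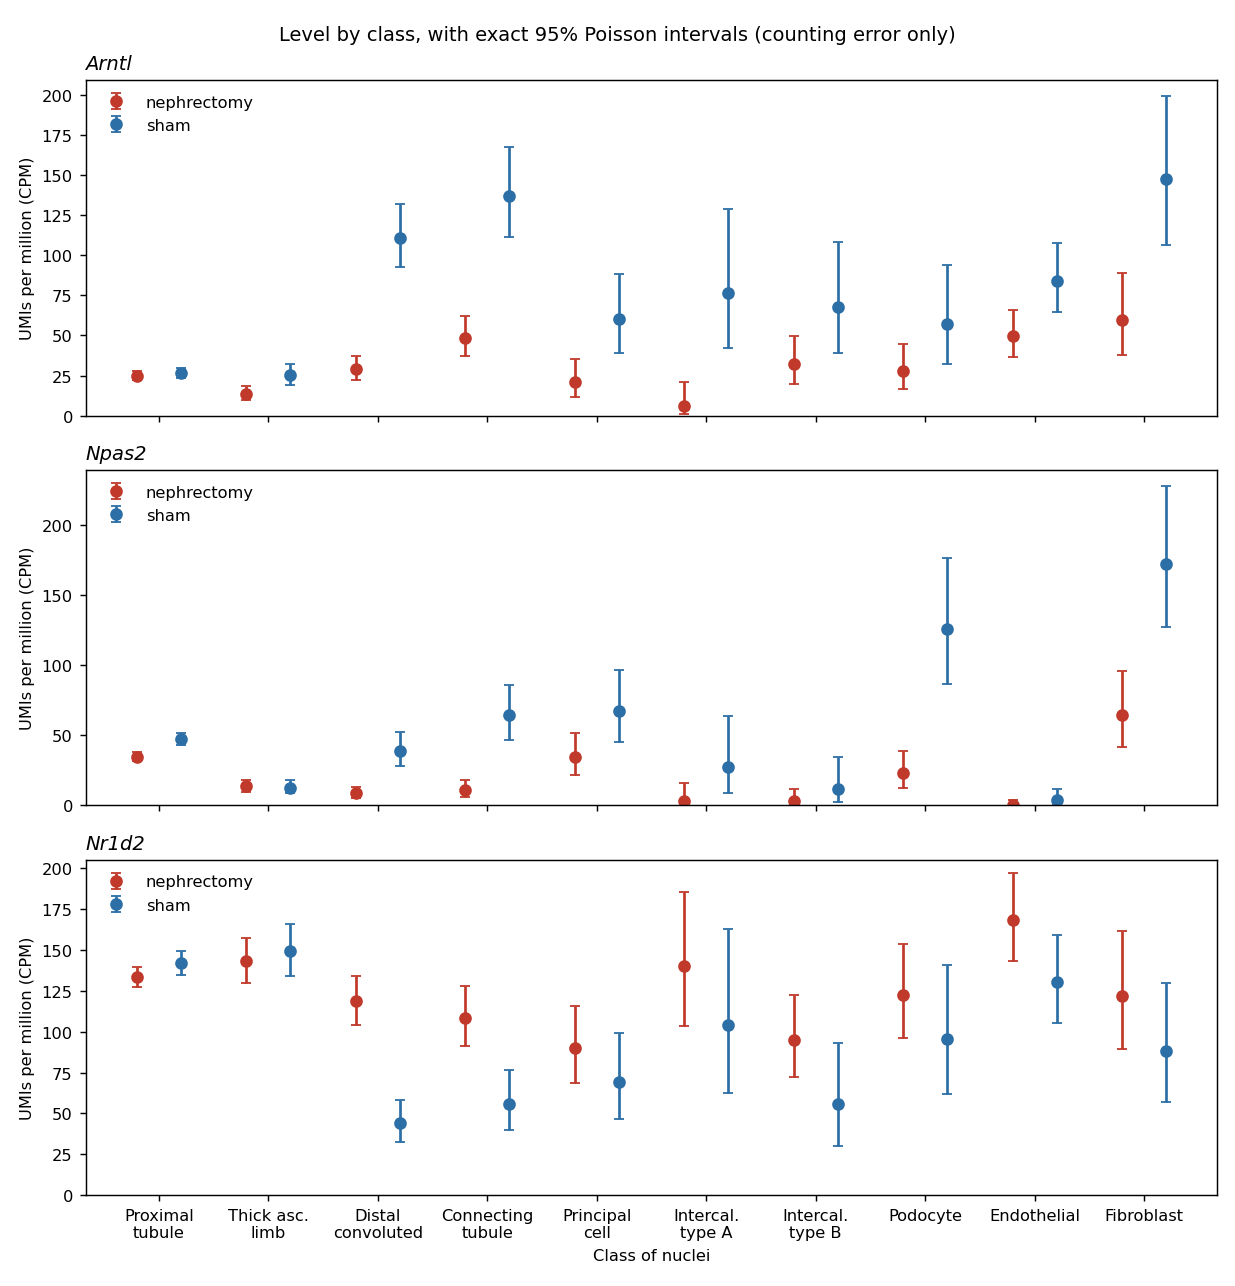
CPM of Arntl, Npas2 and Nr1d2 (vertical axes) in each class of nuclei, with nephrectomy in red on the left and sham in blue on the right of each pair, and bars for exact 95% Poisson intervals of 1 library each. For Arntl the sham points of distal convoluted and connecting tubule stand at 111 and 137 CPM, above nephrectomy points of 28.8 and 48.4, while in proximal tubule both libraries lie near 25 CPM.

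Npas2 (ENSMUSG00000026077, chr1:39193731-39363236, plus strand), the alternative partner of BMAL1, showed the same direction as Arntl in distal nuclei from fewer UMIs. Distal convoluted tubule nuclei had 18 UMIs in nephrectomy and 44 in sham, or 8.50 and 38.8 CPM, a ratio of 0.219 (0.119 to 0.386). These UMIs lay in 4.88% of nephrectomy and 16.8% of sham nuclei. Connecting tubule nuclei had 14 in nephrectomy and 45 in sham, or 10.9 and 64.4 CPM, a ratio of 0.170 (0.0861 to 0.315). Endothelial nuclei, where the gene was at its lowest over both libraries, give a level to set beside these: 0 of 263 nephrectomy and 3 of 236 sham nuclei had a UMI, at medians of 3210 and 2780.5 UMIs. The 0 allows a share of nuclei with a UMI of up to 1.14%, taken as 3 counts and not as an exact interval, at a depth well below that of the distal classes. Outside the distal tubule, Npas2 was lower in podocytes (14 nephrectomy and 33 sham UMIs, ratio 0.184, 0.0909 to 0.353), fibroblasts (25 and 49, ratio 0.375) and principal cells (23 and 29, ratio 0.513). Thick ascending limb nuclei had 39 UMIs in nephrectomy and 30 in sham, with a ratio of 1.07 (0.649 to 1.79). In total Npas2 was at least 1.5-fold lower in 5 of the 7 classes measured.

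Clock (ENSMUSG00000029238, chr5:76209868-76304792, minus strand), the other partner, differed less. It had 248 UMIs in nephrectomy and 187 in sham distal convoluted tubule nuclei, a ratio of 0.709 (0.584 to 0.862), which lies inside the 1.5-fold limits. The ratio was 0.865 in connecting tubule (157 and 99 UMIs, 0.669 to 1.12) and 0.983 in proximal tubule nuclei (1654 and 1351, 0.914 to 1.06). Clock was at least 1.5-fold lower in 2 of 10 classes, principal cells (ratio 0.655) and type A intercalated cells (ratio 0.621, 0.357 to 1.09), where 15.4% of all genes were lower. It was in no class at least 1.5-fold higher.

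Among the repressors, Cry1 (ENSMUSG00000020038, chr10:85131700-85185064, minus strand) and Per1 (ENSMUSG00000020893, chr11:69095217-69109960, plus strand) were both at least 1.5-fold higher in proximal tubule nuclei. Cry1, which encodes the cryptochrome that blocks the activator pair, had 192 UMIs in nephrectomy and 62 in sham proximal tubule nuclei. This was 14.3 CPM in nephrectomy and 5.76 CPM in sham, a ratio of 2.49 (1.86 to 3.37). Thick ascending limb nuclei had 59 Cry1 UMIs in nephrectomy and 25 in sham, a ratio of 1.94 (1.20 to 3.24). For distal convoluted tubule nuclei the Cry1 ratio was 1.44, and its interval (0.677 to 3.34) included 1. Connecting tubule nuclei held only 12 UMIs in nephrectomy and 3 in sham. Cry1 was thus higher in 2 of the 4 classes with enough UMIs, where 11.1% (proximal tubule) and 9.74% (thick ascending limb) of all genes were.

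Per1, whose product joins the cryptochromes in the repressor complex and whose transcription also answers to glucocorticoids, had 861 UMIs in nephrectomy and 357 in sham proximal tubule nuclei. The levels were 64.2 CPM in nephrectomy and 33.1 CPM in sham, a ratio of 1.94 (1.71 to 2.20), and 42.8% of nephrectomy and 25.1% of sham nuclei had a UMI. Distal convoluted tubule nuclei had 65 UMIs in nephrectomy and 39 in sham, a ratio of 0.891 (0.590 to 1.36). For connecting tubule nuclei, with 35 UMIs in nephrectomy and 12 in sham, the ratio was 1.59 (0.807 to 3.37). Per2 (ENSMUSG00000055866, chr1:91415982-91459324, minus strand), the partner repressor, passed 1.5-fold in none of the 9 classes measured. Its ratio was above 1 in 8 of them, from 1.14 in proximal tubule (595 nephrectomy and 419 sham UMIs) to 1.48 in endothelial nuclei (38 and 20), and 0.981 in fibroblasts.

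Nr1d2 (ENSMUSG00000021775, chr14:18204054-18239127, minus strand), which encodes REV-ERB beta, was higher in both distal classes. Distal convoluted tubule nuclei had 251 UMIs in nephrectomy and 50 in sham, which is 118 CPM (104 to 134) in nephrectomy against 44.1 CPM (32.8 to 58.2) in sham. The ratio was 2.68 (1.97 to 3.71). UMIs were found in 56.6% of nephrectomy and 22.6% of sham nuclei, and in 13.7% and 2.19% after thinning to 1000 UMIs. Connecting tubule nuclei had 139 UMIs in nephrectomy and 39 in sham, a ratio of 1.94 (1.35 to 2.85). The only other class past 1.5-fold was type B intercalated cells (59 nephrectomy and 14 sham UMIs), with a ratio of 1.71 (0.942 to 3.31), beside 21.3% of all genes that were higher there. In proximal tubule nuclei, with 1788 UMIs in nephrectomy and 1527 in sham, the ratio was 0.940 (0.877 to 1.01). In the thick ascending limb it was 0.959 (0.830 to 1.11). In the sham library the distal convoluted tubule level of 44.1 CPM stood below the 142 CPM of proximal tubule nuclei, and in the nephrectomy library the levels were 118 and 133 CPM.

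Nr1d1 (ENSMUSG00000020889, chr11:98767932-98775333, minus strand), which encodes REV-ERB alpha, was lower in nephrectomy proximal tubule nuclei. They held 132 UMIs in nephrectomy and 198 in sham, or 9.84 and 18.4 CPM, a ratio of 0.535 (0.426 to 0.670). The thick ascending limb had 47 UMIs in nephrectomy and 61 in sham, a ratio of 0.635 (0.425 to 0.944). Distal nuclei held few UMIs, 16 in nephrectomy and 6 in sham for distal convoluted tubule (ratio 1.43) and 20 and 6 for connecting tubule (ratio 1.82), and both intervals spanned 1 (0.530 to 4.45 and 0.705 to 5.54). Nr1d1 overlaps Thra on the opposite strand, and whether counting used strand is not given in the sources used here. Thra itself had a ratio of 0.958 in proximal tubule and 1.27 in distal convoluted tubule nuclei.

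**Figure D3:**
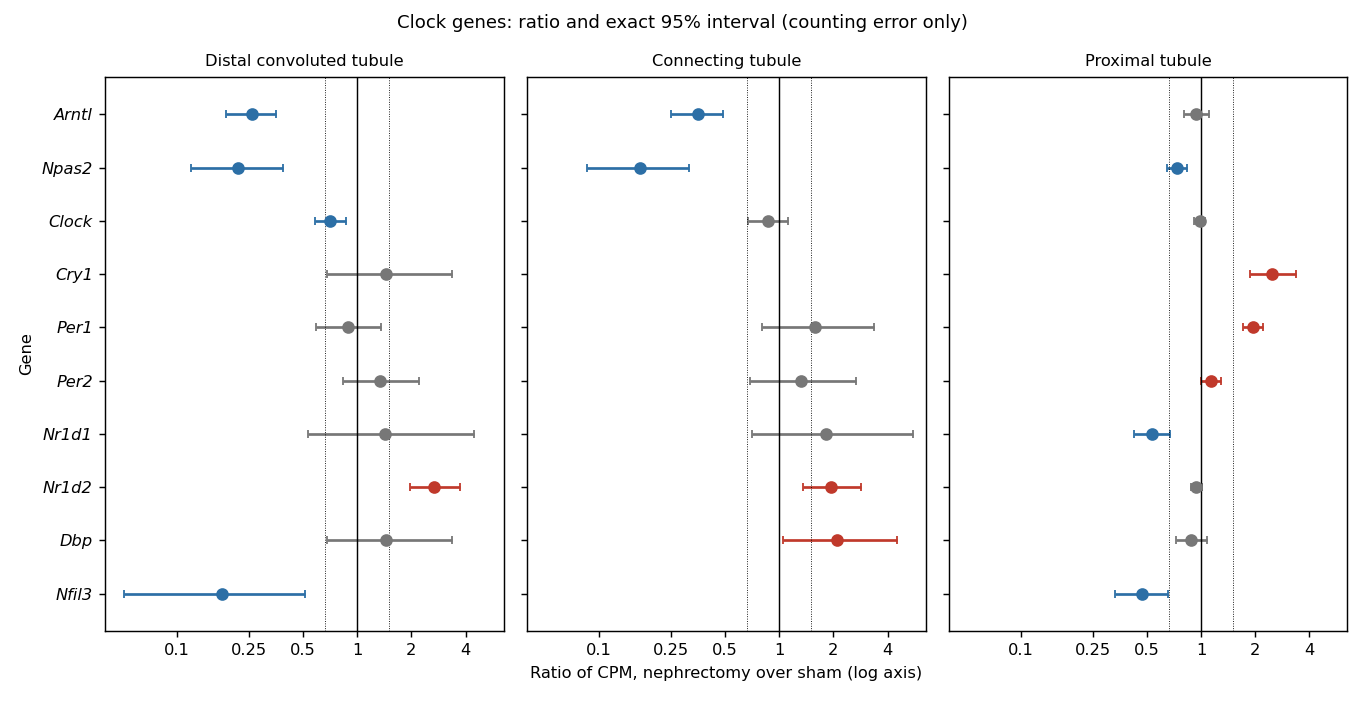
Ratio of CPM, nephrectomy over sham, on a log axis, for the 10 clock genes in 3 classes of nuclei, with exact 95% intervals; red and blue mark intervals wholly above and below 1, and dotted lines the 1.5-fold limits. In distal convoluted tubule nuclei Arntl, Npas2, Clock and Nfil3 lie left of 1 and Nr1d2 right of it, whereas in proximal tubule nuclei Arntl lies at 0.941 and Cry1 at 2.49.

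Dbp (ENSMUSG00000059824, chr7:45705088-45710203, plus strand), an output activator often used as a readout of the E-box loop, was higher in connecting tubule nuclei, with 42 UMIs in nephrectomy and 11 in sham. The levels were 32.8 and 15.7 CPM, a ratio of 2.08 (1.05 to 4.49), and 24.8% of nephrectomy and 10.0% of sham nuclei had a UMI. Endothelial nuclei had 36 UMIs in nephrectomy and 18 in sham, a ratio of 1.56 (0.864 to 2.92), in a class where 10.2% of all genes were higher. Dbp had a ratio of 1.44 in distal convoluted tubule nuclei (27 and 10 UMIs, 0.677 to 3.34), and in proximal tubule nuclei 0.882 (211 and 192, 0.722 to 1.08). Dbp overlaps Sphk2 on the opposite strand, which had 10 UMIs in nephrectomy and 8 in sham connecting tubule nuclei.

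Nfil3 (ENSMUSG00000056749, chr13:52967209-52981073, minus strand), the D-box repressor and a REV-ERB target, was sparse. It had 5 UMIs in nephrectomy and 15 in sham distal convoluted tubule nuclei, a ratio of 0.178 (0.0507 to 0.516). Each of the 5 nephrectomy UMIs lay in a nucleus of its own, and the 15 sham UMIs lay in 11 nuclei. In proximal tubule nuclei, 59 UMIs in nephrectomy and 101 in sham gave a ratio of 0.469 (0.334 to 0.653). Thick ascending limb nuclei had 14 and 12 UMIs, a ratio of 0.961, and connecting tubule nuclei 5 and 0.

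UMIs of Nr1d1 and Nr1d2 per UMI of Arntl and Npas2 can be given within each library without scaling. Clock, the other activator gene, was left out of this ratio. For distal convoluted tubule nuclei it was 3.38 in nephrectomy (267 to 79 UMIs) and 0.329 in sham (56 to 170), and the quotient of the libraries was 10.3 (6.80 to 15.5). For connecting tubule nuclei it was 2.09 in nephrectomy and 0.319 in sham, a quotient of 6.56 (4.16 to 10.4). The highest quotient was in type A intercalated cells, 15.8 (3.96 to 89.0), from 3 nephrectomy and 19 sham UMIs of Arntl and Npas2. Other quotients were 4.42 (2.27 to 8.67) in podocytes, 3.81 (1.56 to 9.31) in type B intercalated cells and 3.48 (1.90 to 6.38) in fibroblasts. They were 3.05 (1.66 to 5.64) in principal cells and 2.22 (1.40 to 3.53) in endothelial nuclei. Proximal tubule and thick ascending limb had quotients of 1.10 (0.980 to 1.25) and 1.28 (0.904 to 1.80), whose intervals spanned 1. This ratio was formed after the values of its genes had been seen, and since it includes Arntl and Npas2 it is a description.

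**Figure D4:**
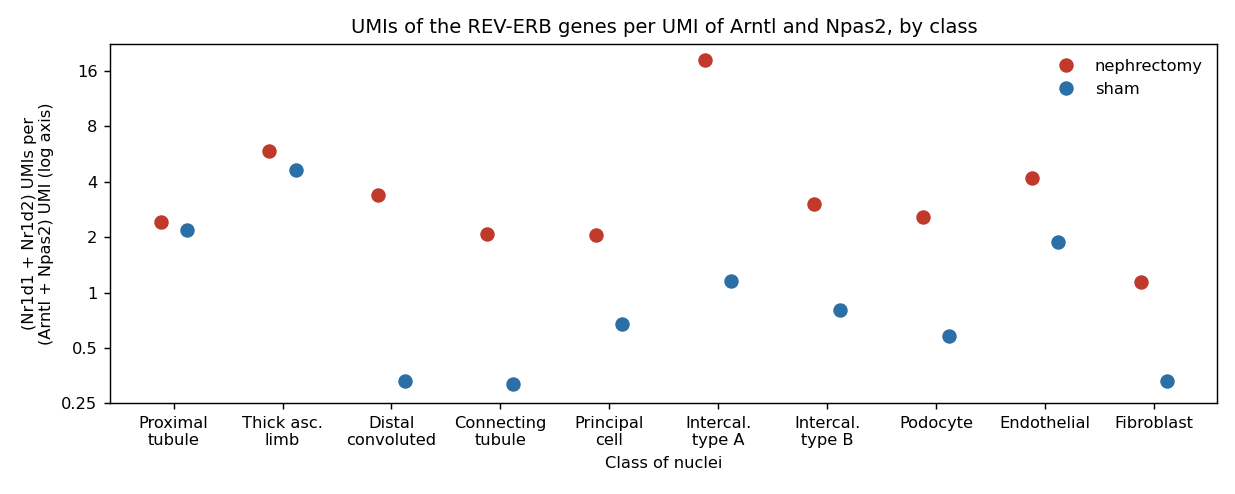
UMIs of Nr1d1 and Nr1d2 per UMI of Arntl and Npas2 (log axis) in each class of nuclei, nephrectomy in red on the left and sham in blue on the right of each pair. The points lie at 3.38 and 0.329 in distal convoluted tubule nuclei and at 2.41 and 2.18 in proximal tubule nuclei; the nephrectomy point of type A intercalated cells rests on 3 UMIs of Arntl and Npas2.

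The distal values were looked at again within finer clusters. At a higher clustering resolution the distal convoluted tubule nuclei formed a cluster with little Slc8a1 (139 nephrectomy and 95 sham nuclei) and a cluster with high Slc12a3 and high Slc8a1 (66 and 42), which by its markers was named connecting tubule. Arntl had 43 UMIs in nephrectomy and 75 in sham in the first, a ratio of 0.342 (0.229 to 0.504). In the second it had 18 in nephrectomy and 51 in sham, a ratio of 0.156 (0.0860 to 0.272). Nr1d2 had ratios of 3.22 (2.17 to 4.92) and 1.97 (1.20 to 3.38), and Npas2 of 0.242 and 0.185. Slc12a3 had ratios of 1.04 and 0.937 in the same clusters.

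In proximal tubule nuclei the 5 clusters held the libraries unevenly. One held 462 nephrectomy and 81 sham nuclei, and another 3 nephrectomy and 251 sham nuclei. In that cluster, nearly all from the sham library, Npas2 stood at 76.3 CPM and Nr1d1 at 22.5 CPM. It held 42 of the 101 sham Nfil3 UMIs and 66 of the 198 sham Nr1d1 UMIs of the class. Over the clusters with at least 20 nuclei of each library, weighted equally, the ratio of Npas2 was 0.980, against 0.735 over the class. In the cluster with 390 nephrectomy and 304 sham nuclei, Cry1 had 90 UMIs in nephrectomy and 20 in sham, a ratio of 3.23 (1.97 to 5.54), Per1 had a ratio of 1.52 (1.23 to 1.90), Nr1d1 one of 0.483 (0.310 to 0.746) and Nfil3 (33 and 20 UMIs) one of 1.19 (0.660 to 2.18). In the cluster with 183 and 195 nuclei, Cry1 had a ratio of 0.859 (0.403 to 1.80), Nr1d1 of 0.934, Per1 of 1.45 (1.09 to 1.95) and Nfil3 (3 and 19 UMIs) of 0.163 (0.0308 to 0.553). Per1 had a ratio of 1.09 (0.837 to 1.43) in the cluster with 462 and 81 nuclei and of 2.95 (1.83 to 4.78) in the fifth cluster, with 213 and 187. Arntl had a ratio of 1.79 (1.03 to 3.35) in the cluster with 462 and 81 nuclei. Its ratios were 0.946, 0.832 and 1.13 in the clusters with 390 and 304, 213 and 187, and 183 and 195 nuclei. In the same order of clusters, Npas2 had ratios of 1.60 (1.06 to 2.53), 0.794, 0.818 and 0.962. Dbp had ratios of 0.479 (0.309 to 0.765), 1.27, 2.55 (1.49 to 4.39) and 0.484 (0.281 to 0.809). Per2 had ratios of 0.698 (0.538 to 0.915), 1.04, 1.35 and 1.07, and Nr1d2 of 0.799 (0.680 to 0.941), 0.962, 0.866 and 0.994. Nr1d1 had a ratio of 0.949 (0.481 to 2.08) in the cluster with 462 and 81 nuclei. In that with 213 and 187 it was 0.545 (0.219 to 1.20). The ratios of Arntl, Npas2, Cry1, Per1, Per2, Nr1d1, Nr1d2, Dbp and Nfil3 thus varied between clusters, and the differences between clusters were not tested.

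A list of 15 other clock genes gives the rest of the loop. Among them, 12 had enough UMIs in distal convoluted tubule nuclei, and 3 were at least 1.5-fold higher and none lower, beside 9.83% and 12.9% of all genes, with a median log2 ratio of 0.35 against -0.01 over all genes measured. The 3 were Per3, a further period gene (123 nephrectomy and 38 sham UMIs, ratio 1.73, 1.19 to 2.56), the cryptochrome Cry2 (48 and 12, ratio 2.14, 1.12 to 4.42) and the kinase Csnk1d, which marks PER proteins for decay (131 and 44, ratio 1.59, 1.12 to 2.29). Tef, a relative of Dbp, had a ratio of 1.42 (1.11 to 1.82) and Rora, a ROR receptor gene, of 1.22 (1.11 to 1.34). The ubiquitin ligase parts Btrc and Fbxw11 and the kinase Gsk3b lay between 0.980 and 0.991.

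For connecting tubule nuclei 11 of the 15 were measured, with 2 higher (Cry2 2.0 and Tef 1.52) and Csnk1e lower at 0.650, beside 11.5% and 16.2% of all genes, and a median of 0.12 against -0.02 over all genes. Of these, Tef alone had an interval clear of 1 (1.07 to 2.18). In proximal tubule nuclei, 2 of 14 were higher, close to the 11.1% of all genes: Rora, with 15291 nephrectomy and 6730 sham UMIs and a ratio of 1.82 (1.77 to 1.88), and Csnk1e at 1.61 (0.888 to 3.00). Timeless was lower there, on 8 nephrectomy and 13 sham UMIs. The median was 0.08 against 0.03. Per3 had a ratio of 0.840 (0.769 to 0.918) in proximal tubule nuclei, on the other side of 1 from its value in distal convoluted tubule nuclei.

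**Figure D5:**
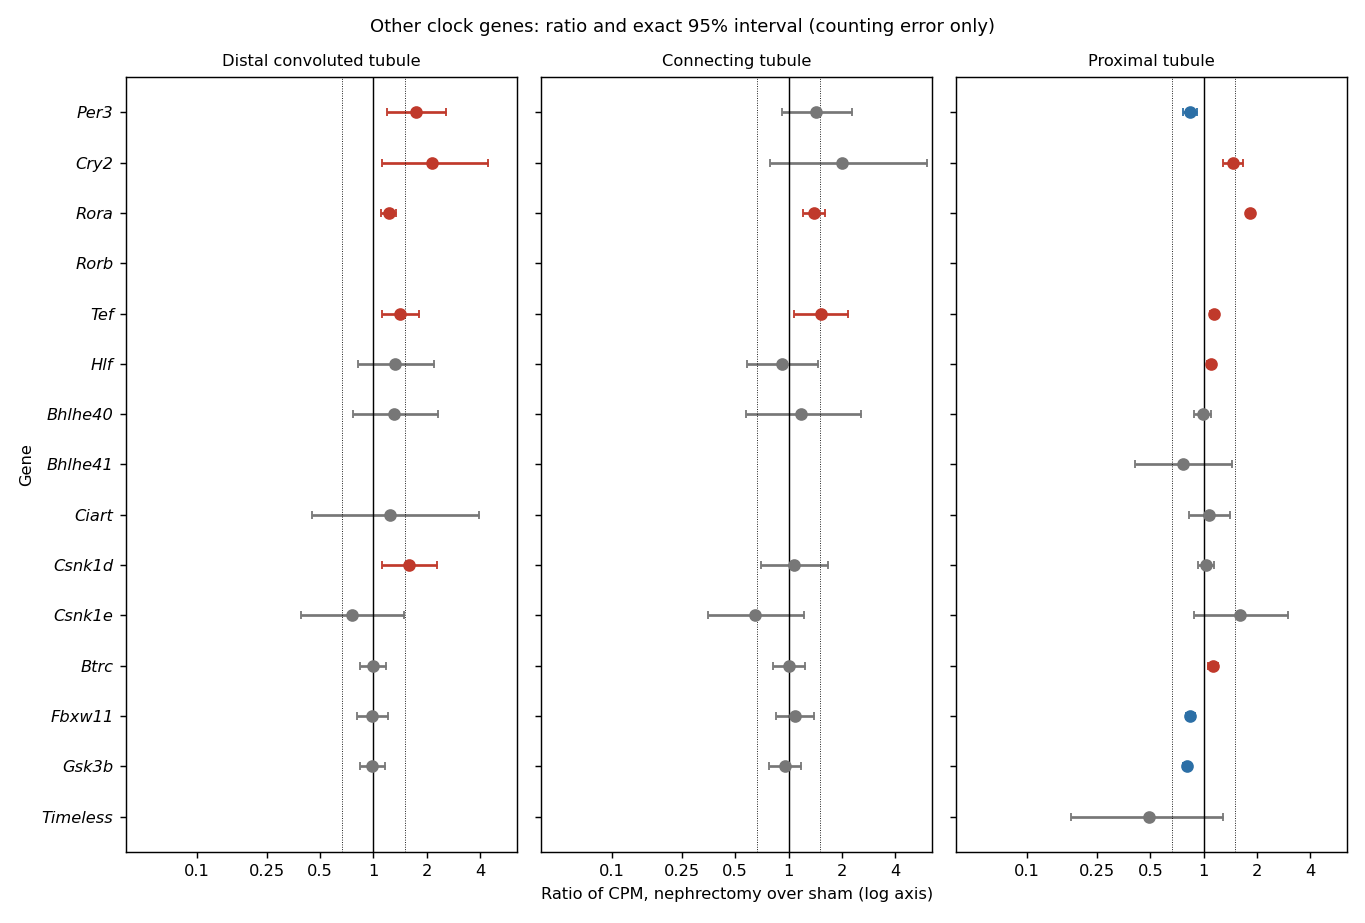
Ratio of CPM, nephrectomy over sham, on a log axis, for the 15 other clock genes in 3 classes of nuclei, with exact 95% intervals for counting error; genes with under 20 UMIs over both libraries have no point. In distal convoluted tubule nuclei Per3, Cry2 and Csnk1d lie beyond the upper 1.5-fold line, and in proximal tubule nuclei Rora has the highest ratio at 1.82.

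Genes that the clock is known to drive in kidney were read from a list of 14. Distal convoluted tubule nuclei gave values for 10 of them, and 2 were higher, beside 9.83% of all genes. These were Wee1, a mitotic kinase gene (84 nephrectomy and 29 sham UMIs, ratio 1.55, 1.00 to 2.45), and Sgk1, a kinase that raises sodium transport (37 and 11, ratio 1.80, 0.898 to 3.91). Nampt, an enzyme of NAD synthesis, had a ratio of 1.34 (1.13 to 1.59), and Usp2, a deubiquitinase, of 1.19. Of 11 measured in connecting tubule nuclei, 3 were lower and none higher, beside 16.2% and 11.5% of all genes. Sgk1 had 110 UMIs in nephrectomy and 97 in sham there, a ratio of 0.619 (0.467 to 0.822), and the vasopressin receptor gene Avpr2 15 and 20, a ratio of 0.409 (0.195 to 0.841). The third, Slc9a3, is a proximal tubule and thick ascending limb gene (12 and 17 UMIs, ratio 0.385), and the summed proximal tubule markers in this class had a ratio of 0.584. Summed principal cell markers, of which Avpr2 is one, had a ratio of 0.684 (0.623 to 0.750) there, and thick ascending limb markers one of 0.473 (0.403 to 0.556). Their part in these values was not tested. The epithelial sodium channel gene Scnn1a had a ratio of 0.997 in both classes. The medians were 0.30 in distal convoluted tubule and -0.16 in connecting tubule nuclei, against -0.01 and -0.02 over all genes.

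The genes whose levels ran most like those of Arntl over the 10 classes of both libraries (20 points, Pearson correlation of log2 CPM with 10 added) were Rwdd1 (0.769), Parp1 (0.737) and Snapc5 (0.725), out of 11052 genes ranked. For Npas2 they were Igfbp7 (0.788), Wnt5b (0.757) and Arhgap24 (0.751), and for Dbp Agrn (0.767), Trdmt1 (0.750) and Commd7 (0.747). No member of the clock was among them. The points of a library share its depth and free RNA, so these are descriptions.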

How the data were processed

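The authors' deposited matrices are raw counts of UMIs per gene and barcode, made with Cell Ranger per the file headers. The header gives version 7.0.1 and the submitters' processing notes give 7.1.0 and the mm10 build. Whether introns were counted, and on which strand, is not given in the sources used here. The members, gene lists and tests were chosen with earlier results of these data known.

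Barcodes under 200 genes or over 10% mitochondrial UMIs (112 nephrectomy, 109 sham) were dropped. Scrublet called 1 doublet in nephrectomy and 0 in sham by its own threshold. Instead, nuclei in the top 3% of scores and clusters with at least 20% such nuclei were left out, 158 in nephrectomy and 154 in sham. Only 2 barcodes occurred in both libraries. Both libraries were clustered together on 2000 variable genes (30 components, 15 neighbours, Leiden resolution 1). Mitochondrial and ribosomal genes were kept out, as were the 41 listed clock and kidney output genes, Slc12a3 and Avpr2 among them. Those 2 were still used as markers in naming. A cluster was named from fixed markers when at least 3 were at least 2-fold above the median cluster in at least 5% of nuclei and no other type led its top 10 genes. Clusters with a median depth under 1/3, or over 2 times, that of both libraries stayed unnamed, as did close scores. This left 4 clusters unnamed. The naming rule was revised after its first results were seen.

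Summed UMIs of a class were scaled by its total to CPM. Ratios have exact conditional binomial intervals, levels exact Poisson intervals and shares exact Clopper-Pearson intervals. With 1 library per group there is no test between animals, so no p-values are printed. Named genes were all members, the listed clock and kidney output genes, and the 3 genes most like Arntl, Npas2 and Dbp; 2 listed clock genes are not reported here. Marker genes named beside them were chosen as class markers. Gene positions came from GENCODE M21 (GRCm38). The ratios and intervals were run on simulated counts with Poisson error only, the error that the intervals assume. This says nothing about the spread between nuclei or animals. Alternatives covered depth, weighting, scaling (edgeR TMM), doublets, filters, clustering and free RNA. Software was Python 3.11.15, scanpy 1.11.5, scipy 1.17.1, leidenalg 0.10.2, matplotlib 3.10.9, R 4.3.3 and edgeR 4.0.16.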

Additional observations from a re-analysis of the deposited data

Results flagged for a closer look

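Nr1d1 had ratios on opposite sides of 1 in different parts of the nephron. Its nephrectomy over sham ratio was 1.82 in connecting tubule nuclei (20 nephrectomy and 6 sham UMIs), against 0.535 in proximal tubule nuclei (132 and 198) and 0.635 in thick ascending limb nuclei (47 and 61). Of the 198 sham UMIs in proximal tubule nuclei, 66 lay in the cluster with 3 nephrectomy and 251 sham nuclei. In the other proximal tubule clusters the ratio was 0.483 (390 and 304 nuclei), 0.545 (213 and 187), 0.934 (183 and 195) and 0.949 (462 and 81). The part of this uneven make-up in the class ratio was not tested. The interval of the connecting tubule ratio spanned 1 (0.705 to 5.54), and the difference between the classes was not tested, since each group is 1 library.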

How the results depend on the processing

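No paired analysis was possible because each group has 1 library. Over the alternatives, Arntl had ratios of 0.229 to 0.547 in distal convoluted tubule and 0.275 to 0.440 in connecting tubule nuclei, and Npas2 of 0.101 to 0.343 and 0.0977 to 0.215. Arntl in distal convoluted tubule nuclei reached 0.547 when thinned to 1000 UMIs and 0.305 at 4000 UMIs, and Npas2 stood at 0.101 with 20% free RNA taken off; the cause was not tested. Among all member ratios with 20 or more UMIs, 838 alternatives stayed within the counting interval, 35 moved beyond it and 1 reversed. This was Arntl in type B intercalated cells, with a main interval below 1 and a ratio of 2.61 when thinned to 1000 UMIs. That ratio rests on few counts, with a UMI in 4 of 49 nephrectomy and 1 of 32 sham nuclei. Ratios whose main interval spanned 1 also changed side and were not counted as reversed. Cry1 in endothelial nuclei went from 1.28 to as low as 0.389, and Per1 in distal convoluted tubule nuclei from 0.891 to as high as 3.34. These too rest on few counts. Thinned to 4000 UMIs, endothelial nuclei held 2 nephrectomy and 4 sham Cry1 UMIs. Thinned to 1000 UMIs, 10 of 205 nephrectomy and 2 of 137 sham distal convoluted tubule nuclei had a Per1 UMI. Arntl in proximal tubule kept its side of 1 in 8 of 12 alternatives, and Npas2 in thick ascending limb in 7 of 12. Nr1d2 in distal convoluted tubule nuclei ranged from 2.48 to 5.18. Genes at least 1.5-fold higher in distal convoluted tubule nuclei (1005) numbered 499 thinned to 1000 UMIs, 537 with at least 50 UMIs, 4323 with no UMI minimum and 367 at 2-fold. Those lower (1317) numbered 357, 673, 3960 and 363. In connecting tubule nuclei the higher genes (1038) numbered 395, 495, 4381 and 354, and the lower genes (1458) 339, 688, 4507 and 511, and 803 thinned to 4000 UMIs. Thinning to 4000 UMIs and totals without the 10 most abundant genes were chosen after seeing the data. At Leiden resolution 0.5, type A intercalated cells and fibroblasts formed no class of their own and gave no value. Counts under 20 UMIs limited most members in intercalated cells.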

Other observations

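The nuclei left without a class, 492 in nephrectomy and 697 in sham, also held clock transcripts. Cry1 had 35 UMIs in nephrectomy and 5 in sham among them, a ratio of 6.11 (2.38 to 19.99), and Per1 144 and 74, a ratio of 1.70 (1.28 to 2.28). Arntl had 63 and 84, a ratio of 0.655 (0.465 to 0.919). These nuclei came from 4 clusters with unlike markers and library shares, so the pooled ratios mix cell types. Cry1 had 14 nephrectomy UMIs and 1 sham UMI in the cluster with 32 nephrectomy and 31 sham nuclei. It had 11 and 0 in that with 76 and 36, 7 and 3 in that with 165 and 193, and 3 and 1 in that with 219 and 437. Type B intercalated cells differed in other clock genes. Rorb, a ROR receptor gene, had 66 UMIs in nephrectomy and 105 in sham there, a ratio of 0.255 (0.184 to 0.350), and Hlf, a relative of Dbp, had 48 and 3, a ratio of 6.48 (2.09 to 32.5). Slc12a3 had 411 UMIs in nephrectomy and 63 in sham thick ascending limb nuclei, a ratio of 5.38 (4.12 to 7.13), where distal convoluted tubule nuclei held 25023 and 13554. The thick ascending limb UMIs lay in 79 of 366 nephrectomy and 48 of 390 sham nuclei. Principal cells (92 and 7 UMIs, ratio 8.50) and fibroblasts (19 and 5, ratio 2.80) also had high ratios. The ratio was 0.837 in type A intercalated cells and 0.700 in connecting tubule nuclei. The cause was not tested.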
